A study of Mus musculus with 8 samples.

Results

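The carriers described here move organic ions, conjugates and drugs across the membranes of kidney cells. They were the genes of the deposited mouse kidney count table whose symbols belong to the Slc22, Slco and Slc47 families of uptake and exchange carriers or to the Abcb, Abcc and Abcg branches of ATP-driven pumps, with Slc22a7 and Slco1a1 set aside. Of 69 such symbols, 24 did not reach the minimum of 10 counts in at least 4 libraries and 43 did: 18 Slc22 genes, 6 Slco genes, Slc47a1 and 18 Abc genes, among 25240 symbols in the table. All 43 were tested. The study sequenced RNA of kidney cells of p16-tdTomato mice fed an adenine-rich diet to induce chronic kidney disease (CKD). There were 4 Tomato-negative and 4 Tomato-positive libraries, named in the labels as proximal tubular epithelial cells of the kidney, and both groups carried the reporter genotype and the CKD treatment, so no library came from a healthy or reporter-free animal. The titles tie each negative library to a positive one by an identifier (CKD523_2, CKD523_3, CKD627_1 and CKD627_2), whose 2 prefixes, CKD523 and CKD627, are not explained in the labels. Nothing used here states how the reporter was built, how cells were sorted, the sex and age of the animals, the length of the diet or whether each identifier is 1 animal.

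The proximal tubule clears drugs and metabolic waste in 2 steps across its cells. Basolateral carriers draw organic anions and cations from the blood, the anions in exchange for dicarboxylates that a sodium-coupled carrier keeps concentrated in the cell and the cations down the membrane potential. Apical exchangers and ATP-driven pumps then pass the solutes into the urine, while other apical carriers return urate and carnitine to the cell.

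The reporter itself separated the groups. The tdTomato transcript stood at 87.3 to 152 CPM (counts scaled to library size with TMM factors) in the Tomato-negative libraries and at 3227 to 4188 CPM in the Tomato-positive ones, a log2 difference of 5.08 (SE 0.21, adjusted p = 2.81e-05, edgeR's quasi-likelihood test with Benjamini-Hochberg adjustment). Library totals ran from 13474439 to 19886202 counts. Of 24 proximal tubule markers fixed as a list, none was at 0 in every library. Their summed level was 15906 to 27938 CPM in the CKD523 libraries and 5310 to 8650 CPM in the CKD627 libraries. Markers of the thick ascending limb summed to 1957 to 14464 CPM and those of principal cells to 453 to 6047 CPM, so transcripts of other tubule segments were present in libraries labelled as proximal. In such bulk RNA, fewer cells of a type and less RNA per cell cannot be told apart.

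In the Tomato-positive libraries 5 carriers of organic anions, urate and cations were lower and 1 pump, Abcc5, was higher. With each positive library compared with the negative library of the same identifier, 5 of the 43 transporters fell (11.6%, against 3.81% of the 14284 genes tested) and 1 rose (2.33%, against 3.82%). The 5 that fell were Slc22a6, Slc22a12, Slc22a2, Slc22a19 and Slc22a30. A fit that ignored the identifiers called 0 of the 43 in either direction, against 0.595% of all genes; 12 had an unadjusted p under 0.05 there (27.9%, against 17.8% of all genes). Without the pairing, DESeq2 called 3 (Abcc5, Slc22a19 and Slc22a6; 6.98%, against 7.06% of all genes) and limma-voom 0 (against 0.644%). By direction alone, 11 transporters were lower in all 4 pairs (25.6%, against 17.6% of all genes) and 4 were higher in all 4 pairs (9.3%, against 17.9%). The median log2 difference, positive minus negative, was -0.20 over the 43 transporters and 0.01 over all genes.

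**Figure D1:**
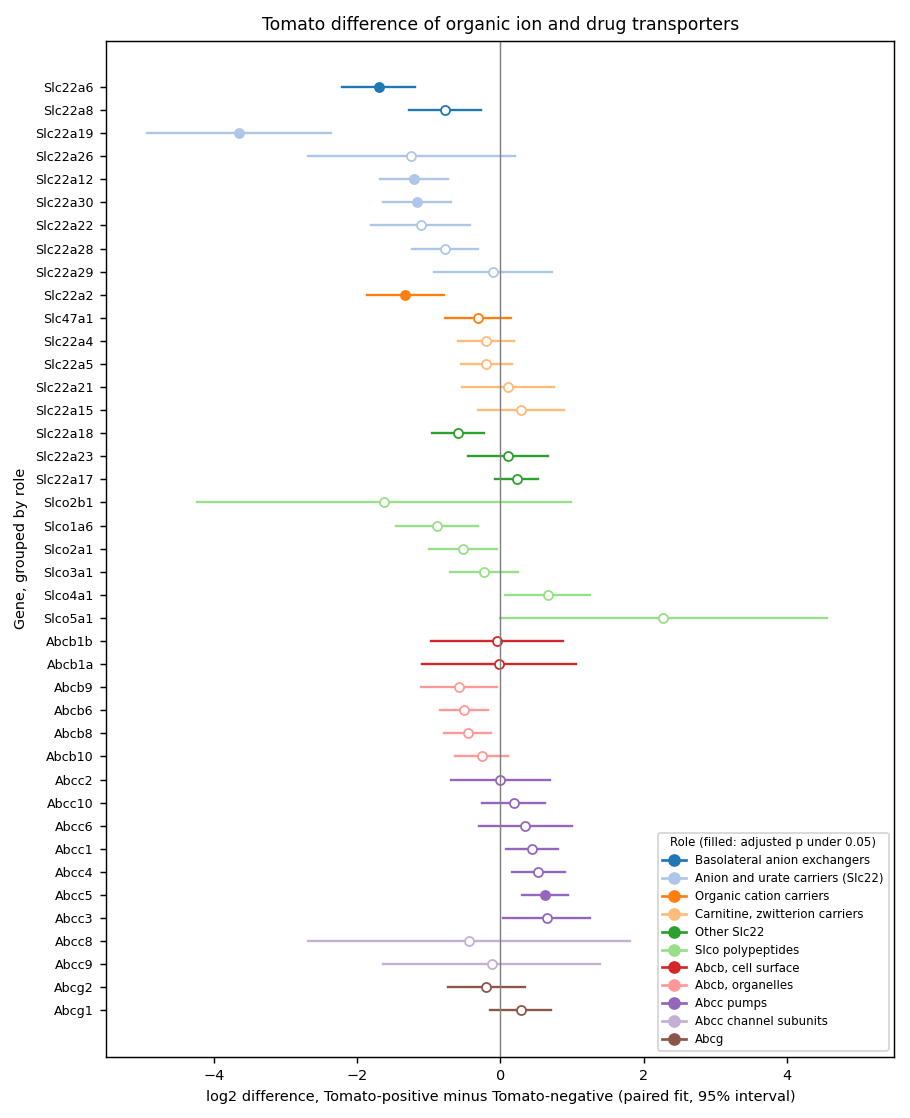
Log2 difference in level between Tomato-positive and Tomato-negative libraries (x axis) for 41 of the 43 transporters (y axis, grouped and coloured by role), from the paired fit over 4 pairs, with lines for the 95% interval and filled circles for an adjusted p under 0.05. The filled circles are Slc22a6 (-1.70), Slc22a19 (-3.65), Slc22a12 (-1.21), Slc22a30 (-1.16) and Slc22a2 (-1.33) on the left of 0 and Abcc5 (0.62) on the right.

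Slc22a6 and Slc22a8 encode the pair of basolateral exchangers that take organic anions such as antibiotics, antivirals, diuretics and uremic toxins from the blood. Slc22a6 stood at 871, 1079.6, 159 and 262 CPM in the Tomato-negative libraries of CKD523_2, CKD523_3, CKD627_1 and CKD627_2 and at 179, 244, 65.4 and 123 CPM in their Tomato-positive partners. Each positive library was thus below its partner, by 4.87, 4.43, 2.43 and 2.13 times, while the groups overlapped because the negative library of CKD627_1 lay within the range of the positive ones. Its paired log2 difference was -1.70 (SE 0.22, adjusted p = 0.00473), and the unpaired adjusted p was 0.164. Slc22a6 was the only transporter still called when CKD523_3 was left out, and no single identifier decided its call. Slc22a8 stood at 790, 734, 154 and 197 CPM in the negative libraries, in the same order, and at 320.4, 302, 116 and 184 CPM in the positive ones. It too was lower in every pair, by a factor of 2.46, 2.43, 1.33 and 1.07, and at -0.78 (SE 0.22) its adjusted p of 0.0689 missed the threshold.

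These 2 genes lie next to each other on chromosome 19 of the mouse build GRCm38, on the plus strand, with 6203 bases and no annotated gene between them (GENCODE M21). Slc22a6 (ENSMUSG00000024650.5) spans 8618039 to 8628299 and Slc22a8 (ENSMUSG00000063796.9) spans 8591254 to 8611835. Promoters in the RefSeq table (GRCm38.p6, 250 bases before to 50 after a start) were found for 31 of the 43 transporters. The antioxidant response core TGACNNNGC, on either strand, matched 4 of the 31 (Abcb1a, Abcc10, Abcc2 and Abcc4) and 12.4% of the 32851 promoters in the table, and the xenobiotic response core GCGTG matched 6 of the 31 and 32.4% of all. A transporter counted as matched if any of its promoters held the letters, and some had several, while the shares of the table are per promoter. The 2 are thus not counted alike. These are matches of letters on both strands, not measured binding.

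The group of apical and other anion or urate carriers of the Slc22 family had 7 tested genes. All had negative paired differences (median -1.16), and 3 of them fell, against 3.81% of all genes. Slc22a12, the apical urate carrier that returns filtered urate to the cell, had the highest level per transcript length of the 43 transporters, at 381 ± 241 CPM per kilobase (SD, n = 4) in the negative libraries and 148 ± 57.8 in the positive ones. Its CPM were 1361, 1307, 344 and 436 in the negative libraries and 468, 395, 163 and 313 in the positive ones. The difference was seen in every pair and was larger in CKD523, and the paired value was -1.21 (SE 0.21, adjusted p = 0.0129; unpaired 0.206). Other high levels per kilobase among the negative libraries were those of Slc22a18 (157 ± 89.3), Slc22a6 (149 ± 113), Slc22a8 (120 ± 86.9) and Slc47a1 (106 ± 79.2), whose order is not resolved beyond their spread.

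Slc22a19, a carrier of organic anions that include steroid sulfates, showed the largest difference of the transporters that passed. It stood at 11.6, 25.2, 2.81 and 6.36 CPM in the negative libraries and at 0.615, 1.84, 0 and 1.41 CPM in their positive partners, the latter from 8, 32, 0 and 29 counts. Every positive library was below every negative one. The paired log2 difference was -3.65 (SE 0.57, adjusted p = 0.00914), with an unpaired adjusted p of 0.116. This gene met the count minimum in all 4 negative but only 2 positive libraries.

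Slc22a30 and Slc22a28 are close copies on chromosome 19. Slc22a30 fell from 62.7, 88.3, 10.5 and 18.0 CPM in the negative libraries to 19.7, 31.6, 6.36 and 10.97 CPM in the positive ones, a paired difference of -1.16 (SE 0.21, adjusted p = 0.0148; unpaired 0.335). The Slc22a30 call was lost when CKD523_2 or CKD523_3 was left out (adjusted p = 0.056 and 0.0961). Slc22a28 stood at 58.5, 77.9, 11.4 and 16.9 CPM against 29.2, 31.0, 9.49 and 12.5 CPM. Its paired difference was -0.77 (SE 0.21) with an adjusted p of 0.0558. Both were lower in every pair, and within prefixes Slc22a30 differed by -1.57 in CKD523 (adjusted p = 0.00263) and -0.72 in CKD627 (0.0696). Of the 50-base stretches of Slc22a28 transcripts, 53.3% also occur in Slc22a30 transcripts, and 31% of those of Slc22a30 occur in Slc22a28 (GENCODE M21). No source used here says how reads with several matches were counted, so the share of each copy is uncertain. The likeness extends upstream, as the 250 bases before each start show (RefSeq, GRCm38.p6, minus strand, at chr19:8405106-8405355 for Slc22a30 and chr19:8131983-8132232 for Slc22a28), where capitals mark the bases that differ.
Slc22a30: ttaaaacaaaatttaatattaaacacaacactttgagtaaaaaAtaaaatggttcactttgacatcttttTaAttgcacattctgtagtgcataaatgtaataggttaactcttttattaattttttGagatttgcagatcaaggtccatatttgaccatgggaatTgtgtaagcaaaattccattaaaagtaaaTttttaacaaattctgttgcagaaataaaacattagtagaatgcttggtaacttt
Slc22a28: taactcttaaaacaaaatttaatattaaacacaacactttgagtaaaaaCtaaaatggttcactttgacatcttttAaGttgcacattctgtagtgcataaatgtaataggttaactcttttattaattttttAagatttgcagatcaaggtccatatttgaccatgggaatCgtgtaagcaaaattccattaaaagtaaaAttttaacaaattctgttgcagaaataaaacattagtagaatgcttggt
With the first 6 bases of the Slc22a28 stretch left unaligned, 238 of 244 aligned positions (97.5%) were identical and 6 differed. The remaining genes of this group did not pass. Slc22a22 was at -1.11 (adjusted p = 0.0616), Slc22a26 at -1.24 (0.265) and Slc22a29, with 28.7% of its 50-base stretches shared with other genes, at -0.10 (0.892).

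Of the 18 Slc22 transporters, 8 lie on chromosome 19 within 2.09 Mb, from 6535845 to 8628299, and 4 of the 5 that fell are among them. All 8 had negative paired differences, with a median of -1.19, and 6 were lower in every pair. Over all 18 Slc22 transporters 14 were negative, with a median of -0.68, and 8 were lower in every pair. Of the 14284 genes tested, 7065 were negative, 17.6% were lower in every pair and 3.81% fell. This grouping by position was made after the values were seen. Slc22a2, the fifth that fell, lies on chromosome 17.

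Among the cation carriers, Slc22a2 fell. It is the basolateral carrier that takes up metformin, creatinine and monoamines, and its levels were 214, 238, 44.3 and 58.4 CPM in the negative libraries and 52.9, 75.3, 20.4 and 41.7 CPM in the positive ones. It was lower in every pair, at -1.33 (SE 0.24, adjusted p = 0.0147; unpaired 0.224). Slc47a1, the apical exchanger that passes cations into the urine, was at 597, 587, 112 and 145 CPM against 359, 338, 110 and 179.6 CPM, a difference of -0.31 (SE 0.20, adjusted p = 0.369). The uptake carrier was thus called and the exit carrier was not, although the difference between the 2 genes was not itself tested.

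**Figure D2:**
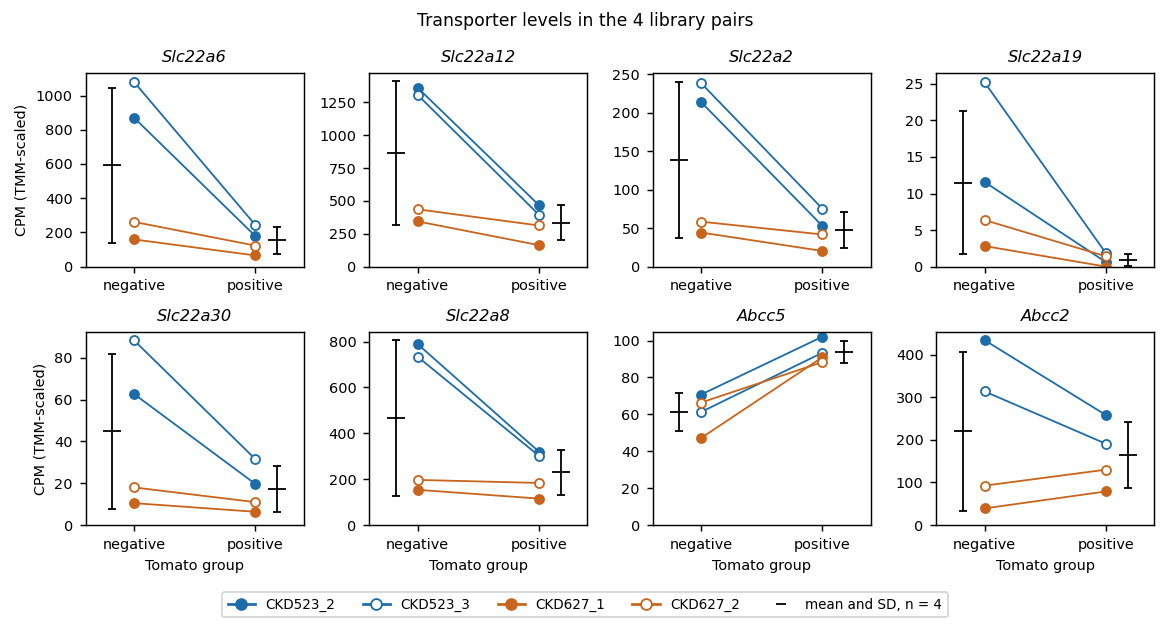
CPM (y axis, TMM-scaled, linear) of 8 transporters in the Tomato-negative and Tomato-positive library of each identifier (lines join the pairs; blue CKD523, orange CKD627), with black marks for the mean and SD of 4 libraries. Slc22a6, Slc22a12, Slc22a2, Slc22a19, Slc22a30 and Slc22a8 go down in every pair and Abcc5 goes up in every pair, while Abcc2 goes down in the CKD523 pairs and up in the CKD627 pairs.

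The carnitine and zwitterion carriers and the other Slc22 genes held no call. Slc22a5, the carnitine carrier of the apical membrane, differed by -0.20 (adjusted p = 0.486), and the ergothioneine carrier Slc22a4 by -0.20 (0.51). Slc22a5 shares 26.1% of its 50-base stretches with Slc22a21, which stood at 0.11 (0.85). Slc22a18, an imprinted gene of the family, was lower in every pair at -0.59, with an adjusted p of 0.0615. Slc22a17, a receptor for the iron-scavenging protein lipocalin, was higher in every pair at 0.23, with an adjusted p of 0.318.

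None of the 6 Slco genes passed, and they pointed both ways. These sodium-independent carriers take up bile acids, steroid conjugates, prostaglandins and thyroid hormones. Slco1a6 had 159, 163, 41.7 and 48.3 CPM in the negative libraries and 62.5, 56.1, 25.5 and 51.4 CPM in the positive ones, at -0.89 (SE 0.25, adjusted p = 0.0718). The prostaglandin carrier Slco2a1 was at -0.53 (0.16) and Slco3a1 at -0.23 (0.543). Slco4a1, a thyroid hormone carrier, had 72.3, 53.8, 71.9 and 84.6 CPM against 128, 168, 89.0 and 77.3 CPM, at 0.66 (SE 0.26, adjusted p = 0.158). Slco4a1 was thus higher in both CKD523 pairs and in the CKD627_1 pair, and lower in the CKD627_2 pair. Whether its Tomato difference differed between prefixes did not pass edgeR's test (adjusted p = 0.16), while DESeq2 with the pairing called it. Slco5a1 was near its floor, with 5, 0, 7 and 10 counts in the negative libraries and 23, 39, 23 and 21 in the positive ones; the groups did not overlap, its difference did not pass (adjusted p = 0.201), and it met the count minimum in only 1 negative library.

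Multidrug resistance-associated Abcc pumps had a median difference of 0.45 over 7 genes and held the one rise. Abcc5, a pump for cyclic nucleotides and organic anions, stood at 70.8, 61.3, 47.2 and 66.4 CPM in the negative libraries and at 102, 93.4, 90.9 and 88.3 CPM in the positive ones. Every positive library was above every negative one, and the levels differed little between prefixes. The paired difference was 0.62 (SE 0.14, adjusted p = 0.0329; unpaired 0.0893), a rise of 1.54 times, with 0.57 in CKD523 and 0.68 in CKD627. This call was lost when any of CKD523_2, CKD523_3 or CKD627_2 was left out (adjusted p = 0.0953, 0.156 and 0.0882), with differences between 0.60 and 0.69. Abcc4, an apical pump for cyclic nucleotides, urate and anionic drugs, was also higher in every pair, with 203, 164, 90.0 and 146 CPM against 238, 240.4, 185 and 179 CPM, at 0.53 (SE 0.16, adjusted p = 0.0879). The basolateral pumps Abcc1 (0.45, adjusted p = 0.128) and Abcc3 (0.64, 0.175) were higher in 3 of 4 pairs each and did not pass.

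The remaining pumps were not called. Abcg2, the apical pump for urate and many drugs, was at -0.20 (adjusted p = 0.653), and the cholesterol exporter Abcg1 at 0.28 (0.388). Abcb1a and Abcb1b, the mouse copies of the P-glycoprotein multidrug pump, were at -0.02 (0.988) and -0.05 (0.954), and 16.3% of the 50-base stretches of Abcb1a occur in Abcb1b. The 5 Abcb genes of mitochondria and lysosomes all had negative values. Of these Abcb6 and Abcb8 came nearest to the threshold (adjusted p = 0.0753 and 0.0942), and 50% of the 50-base stretches of Abcb6 are shared with an overlapping gene model, Gm29253.

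Taken by prefix, 15 transporters fell in the CKD523 pairs and 4 in the CKD627 pairs, while the test of the difference between prefixes called none. In a fit with a Tomato term for each prefix and a common spread, 15 of 43 were lower in the CKD523 positive libraries (34.9%, against 4.29% of all genes), and 2 were higher (Slco4a1 and Abcc3, against 4.14%). In CKD627, 4 were lower (Slc22a6, Slc22a12, Slc22a2 and Slc22a19, against 3.14%) and 1 was higher (Abcc2, against 4.38%). The median difference over the 43 was -0.63 in CKD523 and -0.01 in CKD627. Those 4 genes also fell in CKD523, with values in CKD523 and CKD627 of -2.21 and -1.18 for Slc22a6, -1.63 and -0.78 for Slc22a12, -1.84 and -0.79 for Slc22a2, and -3.96 and -3.18 for Slc22a19.

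Abcc2, the apical pump for glucuronide and glutathione conjugates, passed in both prefixes with opposite signs in the fit with a common spread. Its levels were 434 and 314 CPM in the CKD523 negative libraries and 258 and 191 CPM in the positive ones, a difference of -0.73 (adjusted p = 0.029). In CKD627 they were 39.2 and 92.6 CPM against 78.9 and 130.1 CPM, a difference of 0.75 (adjusted p = 0.0356). Fitted on the CKD627 pairs alone, it was 0.72 with an adjusted p of 0.067. The difference between these differences was 1.48, with a 95% interval from 0.93 to 2.02 and an adjusted p of 0.0745. No transporter passed this test of the difference (0.14% of all genes did), although 23 of the 43 had an unadjusted p under 0.05 (53.5%, against 13.8% of all genes). DESeq2 with the pairing called 12, Abcc2 among them (27.9%, against 2.83%). Abcb1a (-1.04 and 1.08), Abcb1b (-0.98 and 0.91) and Abcg2 (-0.78 and 0.39) had values of opposite sign too, of which only that of Abcg2 in CKD523 passed (adjusted p = 0.0153). With CKD627_1 left out, the Tomato difference of 15 transporters differed between prefixes (34.9%, against 3.42% of all genes), and with CKD627_2 left out that of 15 (34.9%, against 19.2%). With CKD523_2 or CKD523_3 left out the count was 0.

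**Figure D3:**
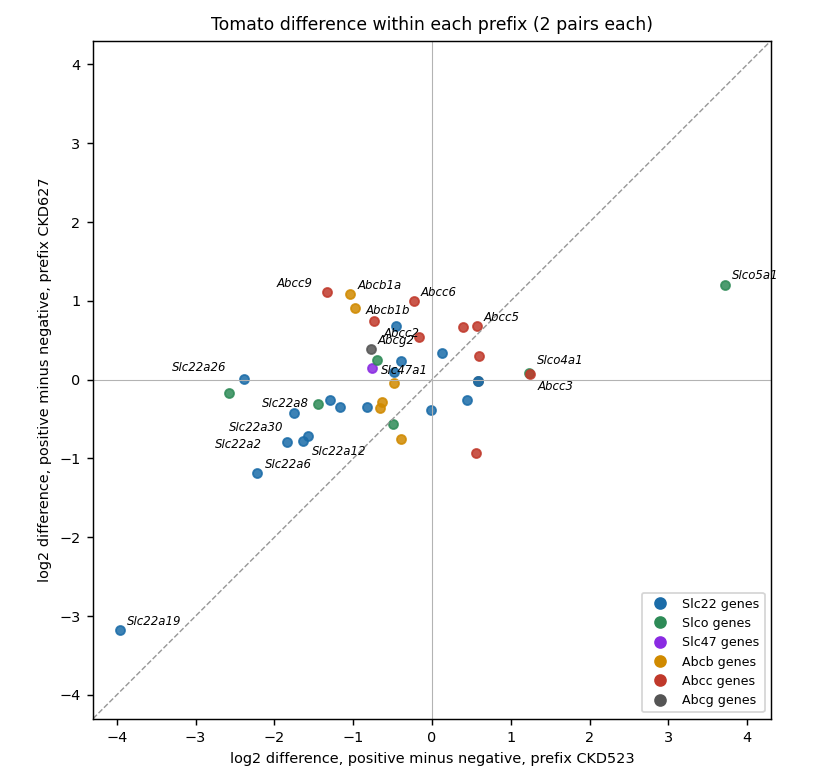
Log2 difference between Tomato-positive and Tomato-negative libraries in the CKD523 pairs (x axis) and the CKD627 pairs (y axis), 1 point for each of 41 transporters, coloured by family, with a dashed line of equality. Most Slc22 genes lie left of 0 and above the line, Slc22a6 at -2.21 and -1.18, while Abcc2, Abcb1a, Abcb1b and Abcg2 lie left of 0 and above 0.

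The summed level of the 43 transporters followed the same split. It was 7658 and 7711 CPM in the CKD523 negative libraries and 4123 and 3922 CPM in their positive partners, and 2250 and 2976 CPM against 2179 and 2830 CPM in CKD627. Summed proximal tubule markers moved likewise in CKD523, from 26787 and 27938 CPM to 16675 and 15906 CPM, and were 5310 and 7436 CPM against 5741 and 8650 CPM in CKD627. In the paired fit 7 of the 23 tested proximal tubule markers fell and none rose. By sign, 14 of the 23 were negative and 9 positive, with a median of -0.17. Over all genes 3.81% fell and 3.82% rose, the shares to set beside each marker list here. Markers of the late proximal tubule were lower in the positive library of all 4 pairs, at 3431 to 9893 CPM in the negative and 826 to 1525 CPM in the positive libraries, and 6 of 9 fell while 1 rose. Principal cell markers were higher in all 4 pairs, at 453 to 2776 CPM in the negative and 1136 to 6047 CPM in the positive libraries, and 8 of 9 rose. Of the thick ascending limb markers 6 of 9 fell (4293 to 14464 CPM in the negative, 1957 to 6977 CPM in the positive libraries), as did 5 of 8 for the distal convoluted and connecting tubule (1234 to 2945 CPM against 224 to 882 CPM) and 3 of 8 for intercalated cells (296 to 2705 CPM against 242 to 1168 CPM). No marker of these lists was at 0 in every library. The part of the late proximal tubule, principal cell and distal markers in the transporter differences was not tested. With libraries scaled to their summed proximal tubule markers, Slc22a6, Slc22a2 and Slc22a19 still passed the test. The other 3 called genes kept their direction but not their call, at -0.91 for Slc22a12 (adjusted p = 0.0677), -0.86 for Slc22a30 (0.164) and 0.92 for Abcc5 (0.0758), on a scale where the median of all genes moved from 0.01 to 0.29.

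**Figure D4:**
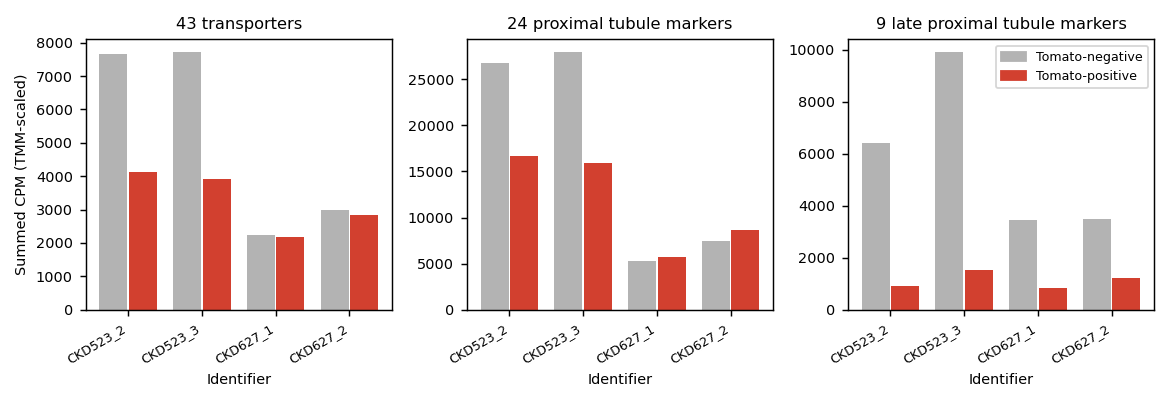
Summed CPM (y axis, TMM-scaled, from 0) of the 43 transporters, of 24 proximal tubule markers and of 9 late proximal tubule markers in each library, by identifier (x axis; grey Tomato-negative, red Tomato-positive). The transporter and proximal tubule sums drop in the CKD523 pairs, from 7658 to 4123 CPM and from 7711 to 3922 CPM for the transporters, and change little in the CKD627 pairs, while the late proximal tubule sum drops in all 4.

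More transporters were called between the prefixes than between the Tomato groups. With the 2 libraries of an identifier added together, 26 of 43 were lower in CKD627 than in CKD523 (60.5%, against 12.6% of the 15398 genes tested) and 2 were higher (4.65%, against 9.15%). The median log2 difference, CKD627 minus CKD523, was -0.87 over the 43. It was -1.66 over the proximal tubule markers, and 1.26 and 1.81 over those of the thick ascending limb and principal cells, and the part of these in the transporter differences was not tested. The prefix cannot be told apart from whatever else distinguished these 2 sets of samples.

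All 12 carriers of the first 3 roles were lower in CKD627, that is both basolateral anion exchangers, the 7 anion and urate carriers and the 3 cation carriers. Slc22a6 averaged 593 CPM in the CKD523 and 152 CPM in the CKD627 libraries, a difference of -2.02 (SE 0.21, adjusted p = 0.000102), and Slc22a8 was at -1.76 (SE 0.17, adjusted p = 7.35e-05). Slc22a30 differed most, at -2.19 (SE 0.25, adjusted p = 0.000168), beside its copy Slc22a28 at -2.01 (SE 0.19, adjusted p = 7.4e-05). For cations, Slc22a2 was at -1.86 and Slc47a1 at -1.81, both past the threshold. The other anion carriers were Slc22a12 (-1.53), Slc22a19 (-1.97), Slc22a22 (-1.80), Slc22a26 (-2.01) and Slc22a29 (-1.74). Among the rest of the family, Slc22a18 (-1.38), Slc22a5 (-1.31), Slc22a21 (-1.16), Slc22a4 (-0.96) and Slc22a23 (-0.95) were lower.

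The pumps were split. Abcc2 (-1.83), Abcc6 (-1.80), Abcg2 (-1.35), Abcb1b (-0.83), Abcb6 (-0.58) and Abcc4 (-0.54) were among those lower in CKD627, as were Slco1a6 (-1.42) and Slco4a1 (-0.46). The sign turned for Abcb1b in the Tomato-positive libraries alone (0.12) and for Slco4a1 in the Tomato-negative libraries alone (0.26). Abcc3, a basolateral pump for bile acid and drug conjugates, was higher in CKD627, with 7.64 to 22.2 CPM in the CKD523 libraries and 23.1 to 28.9 CPM in the CKD627 libraries, a difference of 0.74 (SE 0.18, adjusted p = 0.0146). Slc22a17 was the other, with 53.0 to 58.9 CPM against 70.0 to 93.6 CPM, a difference of 0.50 (SE 0.13, adjusted p = 0.0187). Abcc5 (-0.20), Abcc1 (0.29), Slco3a1 (0.08) and Slco2a1 (-0.12) did not pass. In the Tomato-positive libraries alone the count of lower transporters was 15 (34.9%, against 7.26% of all genes), and in the Tomato-negative libraries alone it was 22 of the 42 tested (52.4%, against 10.5%).

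**Figure D5:**
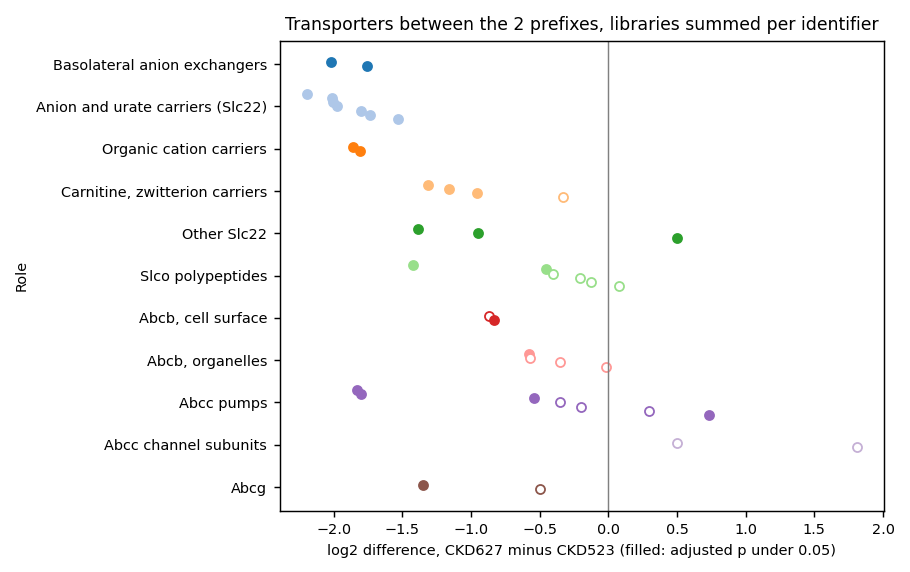
Log2 difference between the prefixes, CKD627 minus CKD523 (x axis), for 41 transporters (points) by role (y axis), from counts summed per identifier, 2 against 2, with filled points for an adjusted p under 0.05. All points of the first 3 roles lie left of 0 and are filled, from Slc22a30 at -2.19, and the filled points right of 0 are Slc22a17 (0.50) and Abcc3 (0.74).

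Genes that serve these carriers were read from 4 lists in the paired fit, where 3.81% of all genes fell and 3.82% rose. Among 12 genes of ion gradients and scaffolds, 2 fell and none rose. They were Fxyd2, a regulator of the sodium pump (1665 ± 175 to 845 ± 202 CPM, SD, n = 4 each, adjusted p = 0.00723), and Slc13a3, the sodium-coupled carrier that supplies the dicarboxylates for basolateral anion exchange (-1.10, SE 0.27, adjusted p = 0.0439). Slc13a3 stood at 555, 540.3, 112 and 138 CPM in the negative libraries and at 165, 151, 82.0 and 108 CPM in the positive ones, lower in every pair as Slc22a6 was. The apical scaffold Pdzk1 (-0.43, adjusted p = 0.185) and Slc13a2, an apical dicarboxylate carrier (-0.84, 0.146), did not pass.

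Among 22 other carriers of organic solutes, 2 fell, the apical urate and organic anion carrier Slc17a3 (-1.05, adjusted p = 0.0198) and the basolateral bile acid carrier subunit Slc51b (-1.18, 0.0275). Slc17a1 (-0.67, 0.0763) and the apical bile acid carrier Slc10a2 (-0.78, 0.11) did not pass. Of 27 conjugating enzymes, which make many of the solutes that these carriers move, 6 fell and none rose. Nat8, which completes mercapturic acids, went from 87.9 ± 55.7 to 22.0 ± 8.25 CPM (SD, n = 4 each) at -1.84 (SE 0.21, adjusted p = 0.0026), and its relatives Nat8f1 (-1.37) and Nat8f2 (-1.04), the glycosyltransferase Ugt3a1 (-1.32), the glutathione transferase Gsta2 (-0.70) and the thiopurine methyltransferase Tpmt (-1.07) were the others.

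Of 16 transcription factors tied to these genes, 1 rose (against 3.82% of all genes) and none fell (against 3.81%). A single call in a list this short is near the share of all genes. Ahr, the receptor for dioxin and many tryptophan products, stood at 18.6, 12.9, 15.9 and 23.6 CPM in the negative libraries and at 33.4, 33.9, 37.5 and 35.6 CPM in the positive ones, at 1.01 (SE 0.19, adjusted p = 0.0155; unpaired 0.0603). Its groups did not overlap. Hnf4a (-0.06, adjusted p = 0.927) and Nfe2l2 (0.04, 0.888) did not pass, nor did Vdr (-0.57, 0.0901) or Nr1h3 (-0.50, 0.11).

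The 24 symbols below the minimum held 9 with no count in any library, among them Abcb11, Slco1b2 and Slc22a20. Slc22a13, an apical carrier of nicotinate and urate, had 32, 54, 5 and 6 counts in the negative libraries and 1, 5, 0 and 0 in the positive ones and was not tested. Slco4c1, the basolateral carrier for cardiac glycosides, had between 0 and 39 counts per library, Abcb4 between 0 and 19, and the basolateral cation carrier Slc22a3 69 counts in all. At this depth 3 counts, the largest number that a count of 0 allows, set the floor, for counting error only.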

How the data were processed

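The deposited values were raw counts per gene symbol in 8 libraries. Per the file headers, subread did the alignment. The submitters' processing notes name the build mm10, edgeR 3.32.1 and limma 3.46.0. No source used here names the counting tool, its annotation, its strand setting or its treatment of multiply mapped reads.

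From these counts, edgeR 4.0.16 (R 4.3.3) kept 14284 genes with filterByExpr (minimum count 10, total 15), computed TMM factors and ran the 2-sided quasi-likelihood test. P-values were adjusted over all genes by Benjamini and Hochberg, with a threshold of 0.05. The identifier entered as a block: libraries that share it correlated at 0.46, 0.32, 0.33 and 0.47 across genes after removal of group means, but so did libraries of the other identifier of the same prefix (0.34, 0.42, 0.30 and 0.47), against -0.58 to -0.31 across prefixes, so these values show the prefix and do not tell its identifiers apart. The pairing itself comes from the titles. The unpaired fit, DESeq2 1.42.0, limma-voom 3.58.1, other scalings, filters and left-out identifiers were alternatives. The prefix comparison used counts summed per identifier, 2 against 2. The fit was also run on counts simulated with the spread it had estimated and with the same Tomato effect in both prefixes. That run cannot show how the fit does where effects differ by prefix. Positions and exon lengths came from GENCODE M21 (GRCm38), where all 43 transporters matched 1 gene; 50-base stretches were compared over its transcripts, exact matches on the same strand.

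The transporters and gene lists were chosen with earlier results of these data known. Named were all called transporters, a fixed list of 23 known carriers, up to 4 genes with the smallest paired p per pathway list, and 6 regulators and partners, except genes that are not reported here; any others were named after their values were seen. The labels do not say that libraries came from separate animals, so p-values measure only the spread between these samples, which may be technical. Chi-square values of 15.5 to 191 per degree of freedom set libraries of 1 group apart, so none was merged.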

Additional observations from a re-analysis of the deposited data

Results flagged for a closer look

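The Tomato difference went one way in both CKD523 pairs and the other way in both CKD627 pairs for 10 of the 43 transporters. The same count was not made over all genes, so whether 10 is more than their share is not known. The pump Abcc2 had the smallest adjusted p, with a difference between prefixes (CKD627 minus CKD523, log2) of 1.48. The copies of P-glycoprotein, Abcb1a and Abcb1b, differed by 2.12 and 1.88, and the urate and drug pump Abcg2 by 1.17. Among the Abcc genes, Abcc6 differed by 1.23, Abcc10 by 0.70 and Abcc9, a potassium channel subunit with at most 6.43 CPM in any library, by 2.44. The carriers Slc22a23, Slco3a1 and Slc22a5 differed by 1.14, 0.94 and 0.58. All 10 were lower in the CKD523 positive libraries and higher in the CKD627 ones. None passed edgeR's test of the difference between prefixes (smallest adjusted p = 0.0745); DESeq2 with the pairing called Abcc2, Abcg2, Slc22a23 and Slco3a1 of them.

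In 3 of 86 groups of 4 libraries, 1 library stood apart from the rest. Chance gives about 1 in 20 where all 4 values come from 1 normal distribution. Each group here held libraries of both prefixes, which did not overlap for 18 of the 43 transporters, so that rate need not apply. Abcb10 was lowest in the Tomato-negative library of CKD627_1, at 34 CPM against 42.6, 43.3 and 42.6 CPM in the others. Abcg1 was highest in the Tomato-negative library of CKD523_3, at 24.5 CPM against 20.4 to 20.9 CPM. Abcc8 had 0 counts in the Tomato-positive library of CKD523_2 and 0.728 to 0.749 CPM in the others.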

How the results depend on the processing

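The count of transporters lower in Tomato-positive libraries (5 with edgeR and the pairing) was 0 with no replicate block, 10 with no filter beyond 1 count, 11 with DESeq2 and the replicate block, 10 with limma-voom and the replicate block, 24 in CKD523 alone and 3 with scaling to summed proximal tubule markers, an alternative chosen after seeing the data. Over all genes the lower calls, 544 of 14284 with edgeR and the pairing, were 33, 735 of 18695, 1056, 716, 1661 of 14183 and 120 in that order. The count of higher ones (1) was 0 with no replicate block, 6 in CKD523 alone, 0 in CKD627 alone, 2 with DESeq2 and the replicate block and 0 with the marker scaling. Over all genes the higher calls, 545 with edgeR and the pairing, were 52, 1482, 744 of 14607, 970 and 594 in that order. Leaving out 1 identifier gave 1 to 8 lower and 0 to 1 higher, beside 102 to 663 lower and 101 to 656 higher over all genes. Without CKD523_3, 1 was lower (Slc22a6, beside 102 of all genes), and without CKD627_1, 8 were (beside 663). The count whose Tomato difference differed between prefixes (0) was 12 with DESeq2 and the replicate block and 0 to 15 with 1 identifier left out, with 15 without CKD627_1 and 15 without CKD627_2. Lower in CKD627 than in CKD523 were 26 (beside 12.6% of all genes), and 15 in the Tomato-positive libraries alone (beside 7.26%). With 1 identifier left out, 19 to 25 were lower, beside 8.85% to 15.9% of all genes. Higher were 2 (beside 9.15% of all genes), and 0 to 3 with 1 identifier left out (beside 6.34% to 11.7%). The count of higher ones was 0 without CKD523_2 (beside 6.34%) and 1 without CKD523_3 (beside 8.12%). Slco4a1 (-0.46 between prefixes) was at 0.26 in the Tomato-negative libraries alone, and Abcb1b (-0.83) at 0.12 in the Tomato-positive ones. The cause of these shifts was not tested, and fewer samples or genes entered some of the fits. DESeq2's and upper-quartile factors, library size alone and the 10-count filter kept every paired call of the 6 named genes. CKD627 alone gave 4 lower, beside 622 of the 14607 genes tested there.

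Between 13.5 and 19.9 counts stood behind 1 CPM, so levels near or below 1 CPM, as for Slco5a1, Slco2b1, Abcc8 and the positive libraries of Slc22a19, rest on few counts.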

Other observations

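Below the count minimum, 2 Abcg genes stood out by their raw counts and were not tested. Abcg4, a relative of the cholesterol exporter Abcg1, had 0, 1, 1 and 6 counts in the Tomato-negative libraries of CKD523_2, CKD523_3, CKD627_1 and CKD627_2 and 11, 0, 24 and 25 counts in the Tomato-positive ones. Abcg3, a mouse relative of Abcg2, had 6, 3, 4 and 1 counts against 0, 8, 20 and 52. Slc22a14 had 6, 4, 5 and 1 counts in the negative libraries and 0 in each positive one. These 3 were chosen after their values were seen.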
